A study of Mus musculus with 6 samples.

Results

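Collagens are the structural proteins of the extracellular matrix, each built as a triple helix of 3 alpha chains that are encoded by separate genes. The chains described here were the rows of the deposited gene table whose symbol is Col, a number, the letter a and a number with nothing after it, which gave 43 genes of 22558 in the table. By class, 11 were fibrillar chains, 9 were chains of basement membranes and 23 belonged to other classes. The other chains were 9 FACIT chains (fibril-associated collagens with interrupted helices), 7 beaded-filament chains, 3 short network chains and 4 membrane-spanning chains. The libraries were made from total RNA of eyes taken at postnatal day 21, kept in RNALater and extracted with a Qiagen RNeasy kit. There were 3 wild type libraries of the C57BL/6 strain and 3 libraries of mice homozygous for a knockout of BC027072, a photoreceptor gene whose human ortholog is mutated in retinitis pigmentosa. The labels give C57BL/6 as the strain of both groups and name no sex, and they do not say whether each library is a separate animal, so a p-value here reflects only how much these libraries vary, which may be technical variation.

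Fibrillar collagens, chiefly type I, give the sclera and the corneal stroma their strength, and in the cornea type V keeps the fibrils thin and even. The vitreous is a gel of thin mixed fibrils of types II, IX and V/XI, while type IV forms the sheets of the lens capsule, Bruch's membrane, the inner limiting membrane and vessel walls. Type VIII is the lattice collagen of Descemet's membrane, which the corneal endothelium lays down, and type XVII anchors the corneal epithelium.

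Values are given as CPM, fragment counts divided by the scaled size of the library, when 1 gene is compared across libraries. Levels of different genes are compared only as CPM per kilobase, the CPM divided by the length of the gene's longest deposited transcript. A chain is said to have risen, fallen or been called when edgeR's quasi-likelihood test with Benjamini-Hochberg adjustment over all 14919 tested genes gave an adjusted p under 0.05, and log2 fold changes are knockout over wild type ± SE. All 43 chains passed the filter on low counts.

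The libraries held between 5695530 and 21815950 fragments. As a check of the genotype labels, BC027072 had 5854, 3667 and 2251 fragments in wild type against 3, 2 and 3 in knockout, and no library went against its label. Xist, an RNA that female cells make to silence 1 of their X chromosomes, had 5905 to 17749 fragments in knockout replicate 2 and the 3 wild type libraries, whereas knockout replicates 1 and 3 held 11 and 18 Xist fragments and 2047 and 2957 fragments of 4 Y-linked genes. Male libraries were therefore all knockout, so sex and genotype are partly confounded, and knockout replicate 2 is the single knockout library that parts them. Wild type replicate 1, the most deeply sequenced library, stood apart in its collagens, though not in these alone. Collagen chains took 1.81% of its fragments and 0.947% to 1.15% of the fragments of the other 5 libraries. Results that rest on this library are given with and without it.

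Fibrillar chains led the collagen transcripts of the eye. Col1a1 and Col1a2, the chains of type I collagen, stood at 610 ± 406 and 609 ± 279 CPM per kilobase in wild type (SD, n = 3), followed by Col3a1 of type III collagen at 215 ± 40.3. Without wild type replicate 1 the means were 375, 448 and 192 CPM per kilobase, so the order of the type I chains depended on that library. Col5a2 and Col5a1, which form the type V molecules that start new fibrils, came next among the fibrillar chains at 36.9 ± 8.78 and 28.9 ± 12.1 CPM per kilobase. Col2a1, the main fibril chain of the vitreous, stood at 8.52 ± 1.02 CPM per kilobase. Col11a1 and Col11a2, which join type II fibrils, stood at 15.4 ± 6.29 and 6.70 ± 2.08, and Col5a3, Col27a1 and Col24a1 between 1.82 and 3.97.

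Among basement membrane chains Col4a1 and Col4a2, the pair found in nearly every basement membrane, were the most abundant at 111 ± 10.9 and 60.4 ± 8.80 CPM per kilobase. Col4a5 and Col4a3, of the network of specialised membranes such as the lens capsule, stood at 28.7 ± 1.18 and 21.7 ± 1.36, and Col4a6 and Col4a4 at 12.4 ± 0.200 and 9.58 ± 0.799 CPM per kilobase. Col18a1, whose C-terminal fragment is endostatin, stood at 24.2 ± 2.55 CPM per kilobase. Its relative Col15a1 stood at 5.61 ± 1.31, and Col7a1, the chain of the anchoring fibrils under epithelia, at 2.25 ± 0.352. Of the remaining chains Col8a2 was highest at 97.2 ± 7.40 CPM per kilobase, then Col6a1 and Col6a2 of the beaded filaments at 80.3 ± 22.7 and 61.8 ± 18.4, and Col8a1 at 56.6 ± 4.78.

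Col17a1, the hemidesmosome collagen, had 32.9 ± 2.90 CPM per kilobase, and Col9a1, Col9a3 and Col9a2 of type IX collagen had 30.7 ± 1.73, 22.5 ± 0.967 and 7.42 ± 0.797. The 6 lowest chains were Col13a1 at 1.16, Col6a6 at 0.839, Col19a1 at 0.767, Col28a1 at 0.417, Col6a5 at 0.316 and Col6a4 at 0.272 CPM per kilobase. Type I chains made up 38.4% to 53.8% of all collagen fragments in a library, type IV chains 9.83% to 17.4% and type III 7.93% to 13.6%, with wild type replicate 1 at the high end for type I and at the low end for types III and IV. Type VIII took 4.21% to 6.92% and type IX 1.14% to 2.05%.

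**Figure D1:**
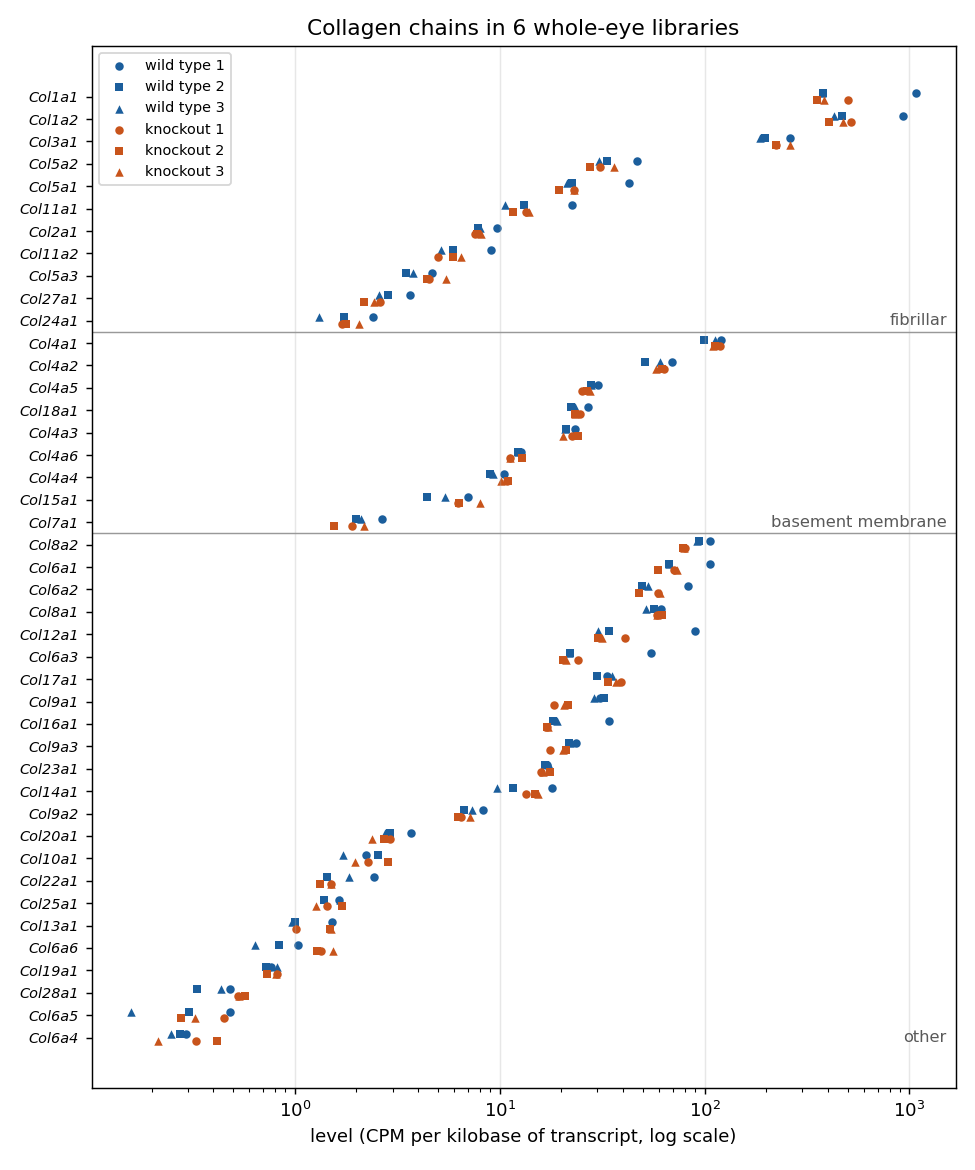
Level of each of the 43 collagen chains in the 6 libraries, in CPM per kilobase on a log axis, ordered by wild type mean within the fibrillar, basement membrane and other classes; blue is wild type, orange is knockout and the marker shape gives the replicate. Wild type replicate 1 lies to the right of the other libraries for most fibrillar chains (Col1a1 at 1079 against 352 to 503 CPM per kilobase), whereas the 3 knockout points of Col9a1 and Col8a2 lie left of all wild type points.

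Against wild type, 1 of the 43 chains rose in the knockout eyes and 2 fell. The background over all genes was 2.89% higher and 3.35% lower. The chains called were Col9a1 and Col8a2, which fell, and Col6a6, which rose. These counts are near the background share and say nothing particular of collagens as a group. With library sex as a covariate, and in the Xist-positive libraries alone, Col9a1 was the single chain called, against backgrounds of 0.61% higher and 0.965% lower, and of 0.619% and 0.961%. With limma on log2(FPKM + 1) of the deposited FPKM 0 chains were called, where 0.09% of all genes were higher and 0.024% lower. At an unadjusted p under 0.05 limma held 2 chains, where 4.88% of all genes did. By class, none of the 11 fibrillar and none of the 9 basement membrane chains was called, and all 3 calls were among the 23 others. At an unadjusted p under 0.05 edgeR over all 6 libraries held 11 chains of 43, where 19.0% of all genes in either direction did. The groups did not overlap in 2 chains that were higher (Col6a6 and Col28a1) and 5 that were lower in the knockout (Col4a5, Col8a2, Col9a1, Col9a3 and Col16a1), against 11.6% and 11.7% of all tested genes.

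The sequences upstream of the called chains are shown with short motifs marked. The 250 bases before the transcript start, 5′ to 3′ on the gene's strand, are from RefSeq on build GRCm38.p6, a later build than the mm9 of the deposited files. The first motif searched was CCAAT, or its complement ATTGG. The second was GGGCGG, with the complement CCGCCC. The third was TATAAA, with the complement TTTATA. Both strands were searched, the motifs do not overlap in these windows, and capitals mark each match. Col9a1 has 2 annotated starts. They lie at chr1:24177360-24177609 (plus strand, start 1) and chr1:24194953-24195202 (plus strand, start 2), and Col8a2 and Col6a6 have 1 each, at chr4:126286544-126286793 (plus strand) and chr9:105828086-105828335 (minus strand).
Col9a1 start 1: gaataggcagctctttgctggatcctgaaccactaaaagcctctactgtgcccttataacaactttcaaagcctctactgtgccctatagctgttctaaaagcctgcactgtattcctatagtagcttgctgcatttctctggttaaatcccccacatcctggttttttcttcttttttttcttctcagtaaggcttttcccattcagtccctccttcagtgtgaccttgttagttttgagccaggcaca
Col9a1 start 2: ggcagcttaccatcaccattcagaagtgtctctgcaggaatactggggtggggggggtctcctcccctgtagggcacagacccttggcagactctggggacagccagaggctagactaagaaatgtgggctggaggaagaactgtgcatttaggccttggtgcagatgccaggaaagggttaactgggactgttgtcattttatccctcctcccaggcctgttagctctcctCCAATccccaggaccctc
Col8a2: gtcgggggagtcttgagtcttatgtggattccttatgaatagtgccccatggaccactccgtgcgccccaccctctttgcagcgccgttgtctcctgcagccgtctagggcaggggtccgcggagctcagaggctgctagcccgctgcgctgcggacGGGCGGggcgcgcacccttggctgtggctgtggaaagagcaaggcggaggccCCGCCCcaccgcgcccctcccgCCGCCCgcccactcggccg
Col6a6: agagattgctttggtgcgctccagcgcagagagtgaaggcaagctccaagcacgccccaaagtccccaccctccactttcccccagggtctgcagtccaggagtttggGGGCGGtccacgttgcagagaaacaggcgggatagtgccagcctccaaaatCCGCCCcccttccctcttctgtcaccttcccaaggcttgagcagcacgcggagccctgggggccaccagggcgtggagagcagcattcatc
The Col9a1 windows hold 0 and 1 CCAAT and no GGGCGG, at 43.6% and 56.0% GC, whereas the Col8a2 window holds 3 and the Col6a6 window 2 GGGCGG, at 70.0% and 62.4% GC. None holds TATAAA. Over all 32817 windows of this length, 33.8% held CCAAT, 32.7% GGGCGG and 12.4% TATAAA. RefSeq windows were found for 35 of the 43 chains, 38 windows in all, of which 13 held CCAAT, 22 GGGCGG (57.9%) and 5 TATAAA. A match describes letters only. In chick eyes a short alpha 1 chain of type IX is made from the downstream start. The deposited annotation lists 1 Col9a1 transcript (NM_007740), so which start was used cannot be read from these values.

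Col9a1 encodes the alpha 1 chain of type IX collagen, which coats the thin fibrils of the vitreous and of cartilage. It spans chromosome 1, 24184449 to 24259577 in mm9. Col9a1 had 119, 126 and 112 CPM in the wild type libraries and 71.3, 83.7 and 80.5 CPM in the knockout libraries. All knockout libraries were lower than all wild type libraries. The log2 fold change was −0.61 ± 0.07 (edgeR adjusted p = 4.1e-05, lower in 3 of 3 libraries), leaving the knockout at 65.8% of the wild type level. Without wild type replicate 1 it was −0.61 ± 0.08, with library sex as a covariate −0.51 ± 0.11 (edgeR adjusted p = 0.0302) and in the Xist-positive libraries alone −0.52 ± 0.10 (edgeR adjusted p = 0.0249). The last 2 fits are not separate support: in both, the comparison within a sex rests on knockout replicate 2 alone, which in the last is assumed to vary like the wild type. Its 1 listed transcript holds the same fragments as the gene, so the isoform fit is not separate support. There it was called lower (−0.60 ± 0.08, edgeR adjusted p = 0.0244), against a background of 1.02% lower and 0.55% higher among 16546 isoforms. That call was lost when any 1 library was left out.

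The partner chains of Col9a1 in the same molecule were not called. Col9a3 had 67.1, 62.0 and 62.7 CPM in wild type and 50.2, 60.3 and 57.8 CPM in knockout. Its groups did not overlap, with a log2 fold change of −0.20 ± 0.07 that did not pass (edgeR adjusted p = 0.149). Col9a2 had 22.7, 18.4 and 20.0 against 17.7, 17.2 and 19.6 CPM, which overlap (−0.17 ± 0.11). The ratio of Col9a1 to Col9a3 per kilobase was 1.30, 1.49 and 1.31 in wild type and 1.04, 1.02 and 1.02 in knockout. That of Col9a1 to Col9a2 was 3.71, 4.83 and 3.97 against 2.85, 3.43 and 2.90. Neither ratio overlapped between the groups, but no difference passed: both gave p = 0.1 in the two-sided exact permutation test, the smallest p that 3 against 3 libraries allow, and 0.2 after adjustment over 10 pairs. Col19a1, another FACIT gene and the neighbour of Col9a1 on chromosome 1 (24264522 to 24594276), had a log2 fold change of 0.06 ± 0.13 with overlapping groups. Col2a1, the fibril chain that type IX coats, had 49.8, 40.4 and 41.0 CPM against 38.9, 39.8 and 41.4 CPM (−0.14 ± 0.09, edgeR adjusted p = 0.442).

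Marker lists were checked for the ciliary body and cartilage, tissues known to make type IX collagen, and also for rods and lens. None of 5 ciliary body markers was called (median log2 fold change −0.17), and their summed level was 997 to 1063 CPM in wild type and 888 to 963 CPM in knockout, without overlap. Opalin was listed among them, and whether it marks the ciliary body was not tested. It stood at 1.84 to 2.46 CPM in wild type and 1.21 to 1.70 CPM in knockout. Cartilage markers summed to 35.4 to 39.4 CPM in wild type and 40.5 to 43.7 CPM in knockout. Of the cartilage markers Acan stood at 0.368 to 2.00 CPM and Matn1 at 0 fragments in every library. Of 5 rod photoreceptor markers 4 were called lower and 1 higher in knockout, beside 3.35% and 2.89% of all genes. With sex as a covariate 4 were lower and 0 higher, beside 0.965% and 0.61%. The rod markers summed to 23899 to 24681 CPM in wild type and 14630 to 16785 CPM in knockout. Lens markers summed to 45359 to 54129 and 42490 to 47332 CPM, with none of 7 called. The part of these tissues in the Col9a1 result was not tested, and in whole-eye RNA fewer cells of a type and less RNA per cell cannot be told apart.

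Col8a2 encodes the alpha 2 chain of type VIII collagen, and its mutation causes corneal endothelial dystrophy in humans. It spans chromosome 4, 125964038 to 125991574 in mm9. Col8a2 had 458, 406 and 399 CPM in wild type and 346, 340 and 344 CPM in knockout. The groups did not overlap and the knockout libraries lay within a narrow range. The log2 fold change was −0.29 ± 0.07 (edgeR adjusted p = 0.0128, lower in 3 of 3). It did not pass without wild type replicate 1 (−0.23 ± 0.07, edgeR adjusted p = 0.0558), without knockout replicate 2 (−0.29, edgeR adjusted p = 0.0614) or with sex as a covariate (−0.31 ± 0.10, edgeR adjusted p = 0.21).

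Its partner chain did not move with it. Col8a1 had 314, 289 and 265 CPM against 299, 318 and 300 CPM, which overlap (0.08 ± 0.07, edgeR adjusted p = 0.626). The ratio of Col8a1 to Col8a2 per kilobase was 0.581, 0.605 and 0.563 in wild type and 0.733, 0.792 and 0.740 in knockout. All knockout ratios were higher (exact permutation p = 0.1, the smallest possible, 0.2 adjusted over 10 pairs).

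Col6a6 encodes one of the chains that can take the place of the alpha 3 chain in type VI collagen. It spans chromosome 9, 105591747 to 105730415 in mm9, with Col6a5 and Col6a4 as its neighbours. Col6a6 had 7.39, 5.92 and 4.54 CPM in wild type and 9.48, 9.13 and 10.9 CPM in knockout. All knockout libraries were higher than all wild type libraries, at a low level. The log2 fold change was 0.68 ± 0.17 (edgeR adjusted p = 0.0219, higher in 3 of 3), or 0.89 ± 0.18 without wild type replicate 1 (edgeR adjusted p = 0.0039). It did not pass when any other 1 library was left out (edgeR adjusted p = 0.0530 to 0.123) or with sex as a covariate (0.55 ± 0.28, edgeR adjusted p = 0.514).

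The neighbours Col6a5 (0.03 ± 0.31) and Col6a4 (0.14 ± 0.26) had overlapping groups. The major type VI chains Col6a1 (−0.25 ± 0.14), Col6a2 (−0.15 ± 0.15) and Col6a3 (−0.60 ± 0.25) were not called, and without wild type replicate 1 they were at 0.01 ± 0.08, 0.13 ± 0.09 and −0.0030 ± 0.08. Per kilobase, Col6a1 to Col6a2 was 1.29, 1.37 and 1.26 in wild type and 1.19, 1.24 and 1.21 in knockout. These ratios did not overlap (exact permutation p = 0.1, 0.2 adjusted over 10 pairs).

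**Figure D2:**
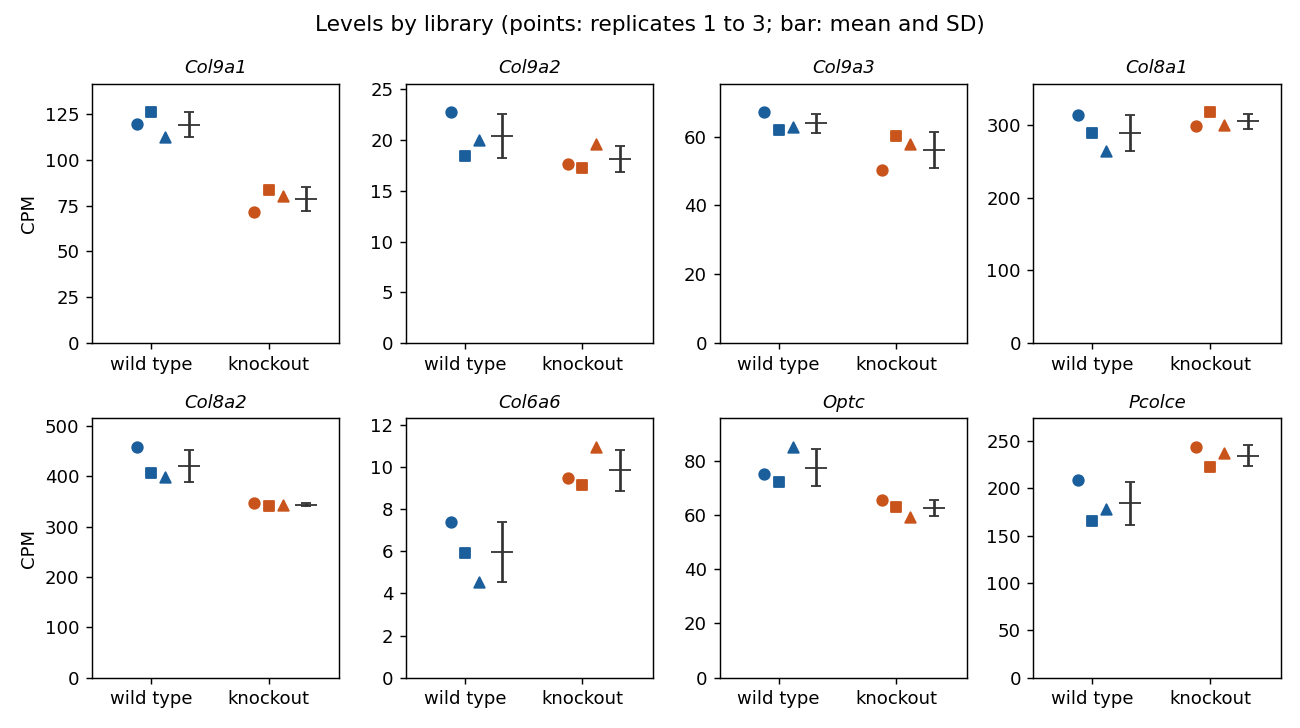
CPM in each library for the called chains Col9a1, Col8a2 and Col6a6, their partner chains Col9a2, Col9a3 and Col8a1, and the matrix genes Optc and Pcolce; points are replicates 1 to 3, and the bar is the mean with its SD, on axes that start at 0. Knockout points lie below wild type points for Col9a1 (71.3 to 83.7 against 112 to 126 CPM), Col8a2, Col9a3 and Optc, above them for Col6a6 and Pcolce, and overlap them for Col9a2 and Col8a1.

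None of the fibrillar chains was called, and 1 wild type library set most of their spread. Col1a1 had 5068, 1768 and 1756 CPM in wild type and 2363, 1654 and 1797 CPM in knockout. Wild type replicate 1 was far above the other 5 libraries, and the other wild type libraries lay within the knockout range. The log2 fold change was −0.56 ± 0.29 (edgeR adjusted p = 0.312), and 0.14 ± 0.10 without that library (edgeR adjusted p = 0.559). Col1a2 had 4781, 2409 and 2200 against 2656, 2091 and 2439 CPM, with the same library apart (−0.39 ± 0.20 with it and 0.06 ± 0.08 without). Col3a1 had 1453, 1091 and 1042 against 1247, 1238 and 1448 CPM (0.13 ± 0.10, edgeR adjusted p = 0.561).

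The same library was high for some chains outside type I, Col12a1, Col6a3, Col5a1 and Col16a1 among them, and not for others, such as Col9a1 (1.00 times the mean of the other wild type libraries) and Col19a1 (0.992 times). Col12a1, a FACIT chain on the surface of type I fibrils, had 1041, 399 and 351 CPM against 478, 351 and 368 CPM. Col6a3 had 596, 239 and 236 against 261, 220 and 229 CPM. Col5a1 had 360, 189 and 179 against 194, 164 and 193 CPM. For these and for Col16a1 (178, 94.9 and 99.1 against 88.4, 88.7 and 89.1 CPM) none was called, and the log2 fold changes of −0.59 ± 0.28, −0.60 ± 0.25, −0.41 ± 0.19 and −0.50 ± 0.17 became 0.09 ± 0.10, −0.0030 ± 0.08, −0.0013 ± 0.08 and −0.13 ± 0.07 without wild type replicate 1. Only Col16a1 of these 4 kept all knockout libraries below all wild type libraries.

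Wild type replicate 1 was the highest of the 6 libraries in 28 of the 43 chains (65.1%), against 14.9% of all tested genes. It exceeded 1.5 times the mean of the other wild type libraries in 14 chains (32.6%), against 1.49% of all tested genes. By class the library was highest in 10 of 11 fibrillar chains, 5 of 9 basement membrane chains and 13 of 23 others, and no basement membrane chain exceeded 1.5 times. The median excess was 1.59-fold for fibrillar and 1.12-fold for type IV chains. The excess was not confined to collagens. Of 90 tested genes that make, process, bind or break down collagen, the library was highest in 38 (42.2%). It exceeded 1.5 times in 8 of them (8.89%). Among these genes it was highest in 13 of 20 basement membrane partners (65.0%) and in 1 of 14 fibril proteoglycans. The main fibroblast and keratocyte proteoglycans did not share it. Dcn, a fibril proteoglycan of fibroblasts, had 1491 CPM there against 1342 to 1732 in the other 5 libraries, Lum had 258 against 245 to 283, and the keratocyte proteoglycan Kera had 127 against 90.3 to 137 CPM. The 6 keratocyte markers summed to 2907, 2902 and 2935 CPM in wild type and 3043 to 3175 CPM in knockout, and none exceeded 1.5 times. The 7 scleral fibroblast markers summed to 2017, 1775 and 1703 CPM in wild type and 1838 to 2121 CPM in knockout, and 2 exceeded 1.5 times (Thbs4 and Comp). Wild type replicate 1 was the highest library in 4 of these 7. Of 5 markers of vessel mural cells 2 exceeded 1.5 times, and of 6 vascular endothelial markers none did. Thbs4 (184 CPM, against 57.9 to 77.5 in the other 5 libraries) and the basement membrane proteoglycan Hspg2 (296 against 142 to 213 CPM), named after their values were seen, were high in that library. What sets the library apart was not tested.

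**Figure D3:**
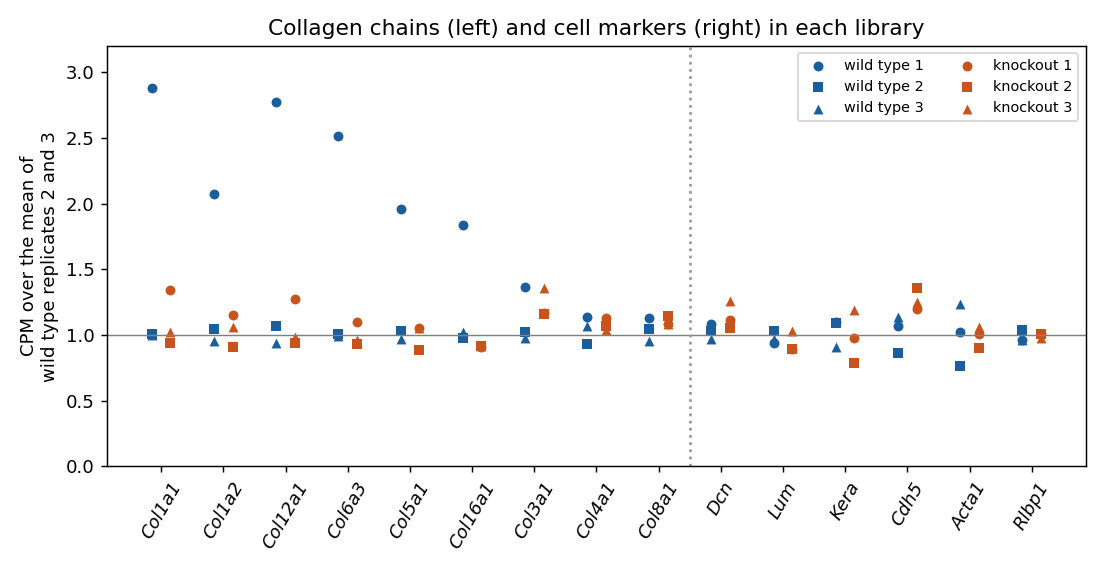
CPM of 9 collagen chains (left of the dotted line) and 6 cell markers (right) in each library, divided by the mean of wild type replicates 2 and 3, on an axis that starts at 0; the genes were picked after their values were seen. Wild type replicate 1 reaches 2.88 for Col1a1 and 2.77 for Col12a1, whereas the fibroblast and keratocyte markers Dcn, Lum and Kera, the vessel marker Cdh5, the muscle marker Acta1 and the glial and pigment epithelial marker Rlbp1 lie near 1 in that library. Not all markers did: 2 of 7 scleral fibroblast markers and 2 of 5 vessel mural cell markers, not shown, exceeded 1.5 there.

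Leaving that library out changed which chains were called. Then 5 chains were higher and 1 lower in the knockout, against a background of 2.84% higher and 3.07% lower of 14983 genes. The 5 were Col3a1 (0.30 ± 0.08), Col5a3 (0.43 ± 0.11), Col6a6, Col14a1 (0.44 ± 0.08, a FACIT chain of stromal fibrils) and Col15a1 (0.52 ± 0.12), with Col9a1 the 1 lower. Over all libraries none of Col3a1, Col5a3, Col14a1 and Col15a1 was called, with log2 fold changes of 0.13 to 0.29. Of the 11 fibrillar chains 9 had a negative log2 fold change over all libraries (median −0.25) and 4 without wild type replicate 1 (median 0.06), beside medians over all genes of 0.0023 and 0.0021. In all, 9 of the 43 chains changed sign. The summed level of fibrillar chains was 12310, 5903 and 5576 CPM in wild type and 6889, 5543 and 6361 CPM in knockout. Its log2 difference was −0.25 (exact permutation p = 0.8) and 0.12 without the library.

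**Figure D4:**
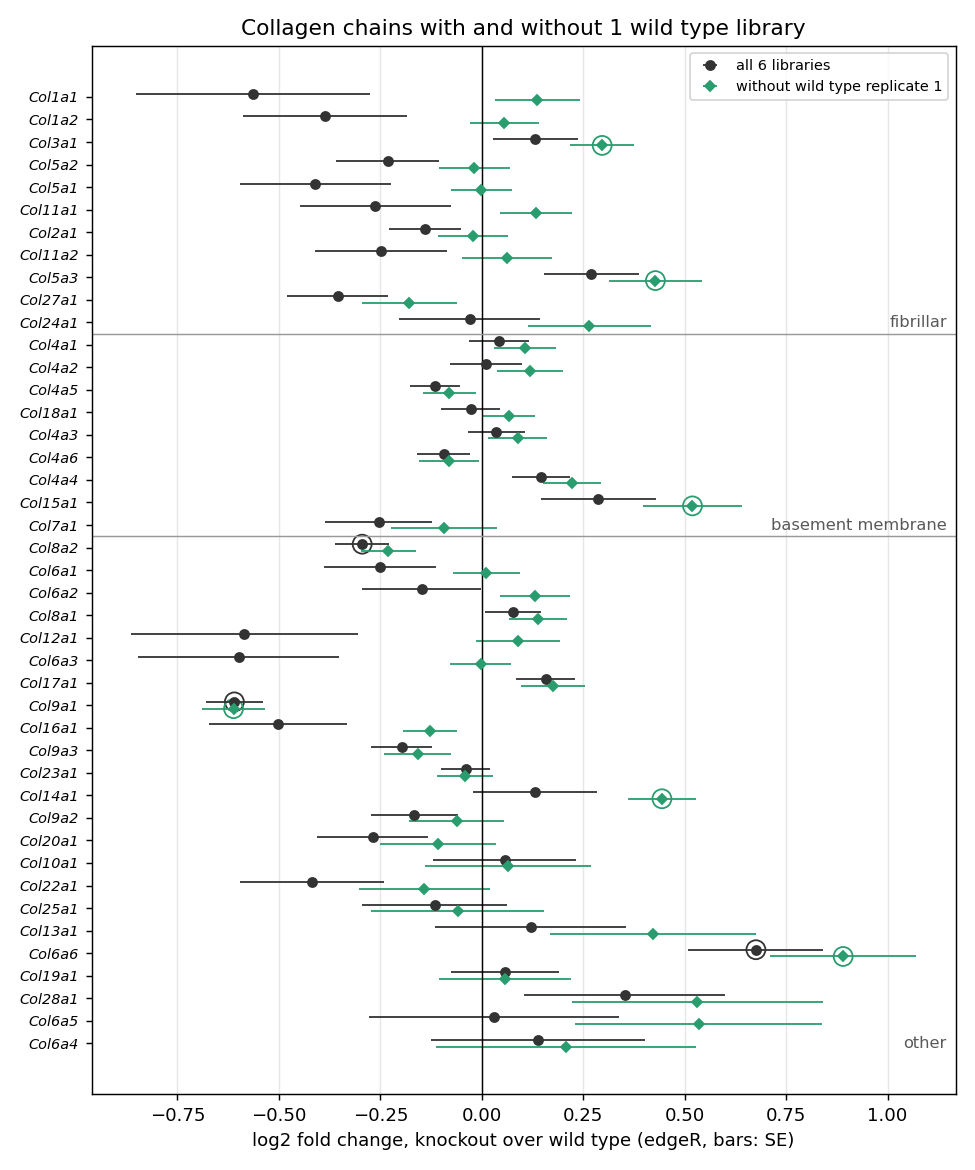
Log2 fold change of each chain, knockout over wild type, from edgeR with all 6 libraries (dark circles) and without wild type replicate 1 (green diamonds); bars are SE and a ring marks an adjusted p under 0.05. The fibrillar chains shift to the right when that library is left out (Col1a1 from −0.56 to 0.14), whereas Col9a1 stays at −0.61 and the median of the type IV chains goes from 0.02 to 0.10.

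None of the 9 basement membrane chains was called over all libraries. Their summed level was 2014, 1666 and 1830 CPM in wild type and 1901, 1874 and 1800 CPM in knockout, which overlap (log2 difference 0.02, exact permutation p = 0.8). Col4a1 had 795, 653 and 745 against 788, 746 and 726 CPM (0.04 ± 0.07), and Col4a2 had 443, 330 and 391 against 408, 397 and 370 CPM (0.01 ± 0.09). Col18a1 had 152, 125 and 131 against 139, 131 and 132 CPM (−0.03 ± 0.07). For these 3 chains the groups overlapped and the edgeR adjusted p was 0.825 to 0.966. Col15a1 spread more widely, at 37.2, 23.5 and 28.7 against 33.2, 33.6 and 42.8 CPM (0.29 ± 0.14, edgeR adjusted p = 0.293), and was called only without wild type replicate 1 (0.52 ± 0.12, edgeR adjusted p = 0.012). Col7a1 had 24.4, 18.3 and 19.4 against 17.6, 14.3 and 20.0 CPM, which overlap.

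The type IV genes sit in head-to-head pairs, and the starts of Col4a1 and Col4a2 overlap by 22 bases at chr8:11312805-11312826 (RefSeq, GRCm38.p6). In the deposited mm9 annotation, from which the ratios below come, Col4a1 ends at 11312826 and Col4a2 starts at 11312829, without overlap. The RefSeq stretch is shown for both strands because the pair shares it in RefSeq, with the GGGCGG match in capitals.
Col4a1, minus strand: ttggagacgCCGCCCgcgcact
Col4a2, plus strand: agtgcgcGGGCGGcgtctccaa
Across the libraries the ratio of Col4a1 to Col4a2 per kilobase was 1.74, 1.92 and 1.85 in wild type and 1.88, 1.83 and 1.91 in knockout, so that the highest was 1.10 times the lowest, the smallest span of the 10 pairs compared. Col4a3 to Col4a4 was 2.22, 2.36 and 2.23 against 2.07, 2.19 and 2.02. These ratios did not overlap (exact permutation p = 0.1, 0.2 adjusted over 10 pairs), with log2 fold changes of 0.04 ± 0.07 for Col4a3 and 0.15 ± 0.07 for Col4a4. The X-linked Col4a5 had 195, 182 and 182 against 163, 174 and 180 CPM, without overlap (−0.12 ± 0.06, edgeR adjusted p = 0.334), and Col4a5 to Col4a6 was 2.27 to 2.37 and 2.09 to 2.48. The type I ratio, Col1a1 to Col1a2 per kilobase, was 1.16, 0.804 and 0.874 in wild type and 0.974, 0.866 and 0.807 in knockout, with wild type replicate 1 highest.

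**Figure D5:**
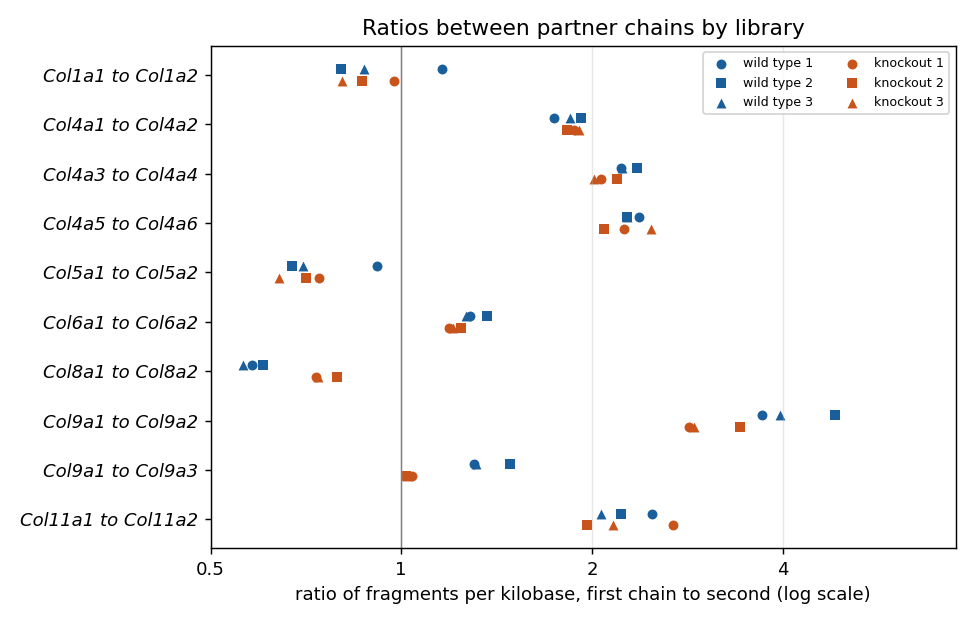
Ratio of the first chain to the second in fragments per kilobase for 10 partner pairs, on a log axis, with 1 point per library. The 2 genotypes separate for both Col9a1 pairs, for Col8a1 to Col8a2, Col4a3 to Col4a4 and Col6a1 to Col6a2, and Col4a1 to Col4a2 has the narrowest span (1.74 to 1.92).

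The authors' deposited table called more collagens. In it 6 chains were lower and 1 higher at q under 0.05, of 39 chains tested there, against a background of 3.77% lower and 3.18% higher of 14403 genes. The lower chains in the authors' deposited table were Col1a1, Col5a1, Col6a3, Col9a1, Col12a1 and Col16a1, and the higher one was Col6a6. Its log2 change was −0.56 for Col9a1 (q = 0.00162), −0.64 for Col1a1 (q = 0.0127) and −0.26 for Col8a2 (q = 0.116). In CPM, wild type replicate 1 lay far above the other wild type libraries in 5 of the authors' 6 lower chains, all but Col9a1. In FPKM, Col1a1 had 1453, 1074 and 327 in wild type and 696, 775 and 360 in knockout. Whether that library bears on the authors' calls was not tested. None of these 5 was called by edgeR in the main fit or without wild type replicate 1. Col16a1 was called lower without the filter on low counts (edgeR adjusted p = 0.0181) and with the replicate block (edgeR adjusted p = 0.0419). It was also called without wild type replicate 2 or 3 (edgeR adjusted p = 0.0323 and 0.0465). The deposited FPKM also carried a scaling that differed from gene to gene. For Col1a1, wild type replicates 2 and 3 had 1768 and 1756 CPM but 1074 and 327 FPKM, and FPKM over CPM per kilobase was 2.85 and 0.875 there, against medians over the chains of 1.21 and 0.881.

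The genes that make, process, bind and break down collagen were counted from 6 lists of 95 genes, of which 90 were tested. Of these 4 rose and 1 fell, beside the 2.89% and 3.35% of all genes, with a median log2 fold change of 0.02. None of the 20 biosynthesis genes was called. Among them P4ha1, a prolyl hydroxylase subunit, had 155, 177 and 170 against 141, 142 and 156 CPM (−0.19 ± 0.07, edgeR adjusted p = 0.112), and Serpinh1, the collagen chaperone, −0.11 ± 0.07. Of 12 tested processing and cross-linking genes 1 rose. It was Pcolce, which enhances cleavage of the procollagen C-propeptide, at 209, 165 and 178 against 243, 222 and 237 CPM (0.35 ± 0.08, edgeR adjusted p = 0.0135). Its groups did not overlap. Of 14 fibril proteoglycans 1 fell. It was Optc, opticin, a proteoglycan on vitreous fibrils, at 75.3, 72.1 and 85.0 against 65.4, 63.0 and 59.4 CPM (−0.30 ± 0.07, edgeR adjusted p = 0.0208), also without overlap.

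None of 10 collagen receptors was called. Of them Lair1, an inhibitory receptor of immune cells, had 4.23, 3.46 and 3.93 against 6.09, 5.34 and 4.81 CPM (0.47 ± 0.18, edgeR adjusted p = 0.156). Of 14 tested degradation genes 2 rose, the membrane-bound protease Mmp14 (0.35 ± 0.10, edgeR adjusted p = 0.0474) and the aggrecan-cleaving protease Adamts5 (0.30 ± 0.08, edgeR adjusted p = 0.04). Of 20 basement membrane partners 1 rose, the proteoglycan agrin (Agrn, 104, 77.5 and 79.3 against 120, 114 and 111 CPM; 0.39 ± 0.09, edgeR adjusted p = 0.0166). None of these 5 calls passed with sex as a covariate, where the background was 0.61% higher and 0.965% lower, and Adamts5 did not pass without wild type replicate 1 (edgeR adjusted p = 0.0803). Without that library 7 of 90 tested partner genes rose and 2 fell, against 2.84% and 3.07% of all genes. Of the 5 calls, none passed without wild type replicate 3 and only that of Optc without wild type replicate 2 or knockout replicate 1. Without knockout replicate 2 only that of Pcolce passed, and without knockout replicate 3 those of Pcolce, Adamts5 and Agrn. Adamts5 also did not pass in DESeq2 (DESeq2 adjusted p = 0.0545).

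Markers of collagen-making tissues were counted in the same fit. Of all genes 2.89% were higher in that fit, 2.84% without wild type replicate 1 and 0.61% with sex as a covariate. Corneal epithelial markers had 3 of 7 higher (1 without wild type replicate 1 and 0 with sex as a covariate), with summed levels of 2922 to 3442 CPM in wild type and 3569 to 3783 in knockout. Col17a1, the collagen of that epithelium, had 182, 161 and 192 against 211, 184 and 201 CPM, which overlap (0.16 ± 0.07, edgeR adjusted p = 0.253). Vascular endothelial markers had 2 of 6 higher (2 without that library and 1 with sex as a covariate), beside the 2.89% of all genes, with sums of 206 to 232 and 282 to 294 CPM, while keratocyte and scleral fibroblast markers had none called of 6 and 7. The part of these tissues in the calls was not tested.

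The isoform counts called no chain beyond those of the gene counts. Of 49 collagen isoforms listed, 41 were tested, 1 fell (Col9a1) and none rose, beside 1.02% and 0.55% of all isoforms tested. Neither isoform of Col6a6 was tested, as both had a mean FPKM under 1. Col18a1 split between NM_001109991 and NM_009929, with the first at 57.0%, 55.5% and 56.9% of its fragments in wild type and 56.2%, 52.0% and 50.0% in knockout. The 2 Col6a3 isoforms had 60.3%, 55.5% and 57.4% against 54.7%, 46.3% and 52.8% for the first, NM_001243008. The split of Col2a1 varied from 0% to 56.9% between libraries for NM_001113515, and that of Col4a5 from 0.198% to 52.6% for NM_007736, with no order by genotype. The isoforms of Col18a1, Col6a3, Col2a1 and Col4a5 had edgeR adjusted p of 0.507 to 0.998.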

How the data were processed

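Whole-eye RNA was measured in 3 wild type and 3 knockout libraries, with 5695530 to 21815950 fragments each. The submitters' processing notes name build mm9 and the tools TopHat2 (2.0.12), Cufflinks (2.2.1) and Cuffdiff (2.2.1), with no order. Gene positions are mm9, with starts counted from 1. The authors deposited, per the file headers, raw fragments per gene and isoform, which are estimated counts, FPKM, and a comparison with p-values and q-values. Transcript lengths came from the deposited isoform table. The strand setting of the counting was not given in the sources used here, so overlapping genes can share fragments.

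The estimated counts were rounded (98.5% of gene values were whole within 1e-06) and tested with edgeR 4.0.16 in R 4.3.3, after filterByExpr at its minimum count of 10 and total of 15, with TMM factors and no covariate. The SE was taken as the absolute log2 fold change over the root of the F statistic. Isoforms of mean FPKM of at least 1 were tested likewise. Class sums and ratios were compared by two-sided exact permutation tests. Alternatives were RLE factors, DESeq2 1.42.0, no filter, limma 3.58.1 on log2 FPKM, a replicate block, sex of the library, Xist-positive libraries alone and leaving out each library. The edgeR fit was tested on simulated data. Genes with failed estimates, 7 in all, were left out.

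Tables number libraries from 0 and labels from 1. They were read in order, and the numbers only name libraries. Same-numbered libraries had correlations of 0.13, 0.07 and −0.05 between their deviations, so they were not treated as pairs. The members and lists were chosen with earlier results of these data known. Named with the value in every library were the 3 chains of each class with the highest wild type FPKM and each called chain, and from each partner list up to 4 genes with the smallest p. Further genes were named after their values were seen.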

Additional observations from a re-analysis of the deposited data

How the results depend on the processing

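Of the 3 calls among the chains, that of Col9a1 held under RLE factors, DESeq2, no filter, the replicate block, sex as a covariate, the Xist-positive libraries and each left-out library. With limma on log2(FPKM + 1) its log2 fold change was −0.54 and its adjusted p 0.625. The limma alternatives (both pseudocounts, and no filter) called 0 chains and 0 partner genes in either direction. In limma on log2(FPKM + 1), 2 chains had an unadjusted p under 0.05, where 4.88% of all genes did (11 chains and 19.0% in edgeR). With sex as a covariate and in the Xist-positive libraries alone, 0 chains were higher and 1 was lower, with 0 partner genes called. With the replicate block, 1 chain was higher and 3 were lower, Col16a1 being added, and 0 isoforms were called. The share over all genes was not taken for the replicate block, so its counts have no background beside them. Sex as a covariate also left 0 isoforms. In the Xist-positive libraries the log2 difference was −0.048 for Col4a3 to Col4a4 and 0.44 for Col8a1 to Col8a2. The cause was not tested.

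Over the 6 fits that each left out 1 library, 0 to 5 chains were higher and 1 to 4 lower, 0 to 7 partner genes were higher and 0 to 2 lower, and 0 isoforms were called. The 5 higher chains and 7 higher partner genes came without wild type replicate 1, and the 4 lower chains (adding Col16a1 and Col22a1) without wild type replicate 2. Of these fits, the share over all genes was taken only for that without wild type replicate 1 (2.84% higher and 3.07% lower). The counts of the others have no background beside them. The log2 fold change ranged from −0.65 to −0.55 for Col9a1, −0.33 to −0.23 for Col8a2, 0.57 to 0.89 for Col6a6 and −0.82 to 0.14 for Col1a1. The class sums ranged from −0.45 to 0.12 (fibrillar), −0.05 to 0.09 (basement membrane) and −0.36 to 0.00 (other). The lowest chains, Col6a4, Col6a5 and Col28a1, had an SE of 0.25 to 0.31, beside 0.29 for the abundant Col1a1 and 0.17 for the low Col6a6. The part of depth in these was not tested.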
